A study of Mus musculus with 6 samples.

Results

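The genes described here encode subunits of the NADPH oxidases, namely Cybb, Cyba, Ncf1, Ncf4, Nox1, Nox4 and Rac2. They were taken as 7 gene symbols, and every probe set that the annotation of the array gives to 1 of them, and to no other gene, was used. This gave 12 of the 45101 probe sets on the array for 6 of the 7 genes, and the signal of Nox1 was not analysed here. The study asked which aortic genes respond to the antioxidant vitamin E in atherosclerosis. Aortas were compared from ApoE-/- mice fed vitamin E (called VitE), ApoE-/- mice without treatment (called ApoE-/-) and B6 (C57BL/6J) mice without the ApoE deficiency, which served as controls. The treated mice had 2000 IU of vitamin E per kg of diet for 7 months. All 3 groups were on the C57BL/6J background, were 32 to 34 weeks old and ate a chow with 7% fat and 0.15% cholesterol. Each group had 2 arrays, and each array held the pooled RNA of 3 aortas, so that the spread between arrays is a spread between pools and not between single mice. The aortas were used whole after removal of fat. In RNA of whole aortas, fewer cells of a type and less RNA per cell cannot be told apart.

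NADPH oxidases transfer electrons from NADPH to oxygen and are a regulated source of superoxide or hydrogen peroxide in the vessel wall. In the phagocyte enzyme, gp91phox (encoded by Cybb) carries the electrons across the membrane and p22phox (Cyba) stabilizes it. On activation the cytosolic subunits, among them p47phox (Ncf1) and p40phox (Ncf4), move to the membrane together with a Rac GTPase, which is Rac2 in blood cells. Nox4 is a catalytic homologue of gp91phox in vascular smooth muscle, endothelium and fibroblasts. It also binds p22phox, but it is active without the cytosolic subunits and releases mainly hydrogen peroxide. Nox1 is a further catalytic homologue of smooth muscle.

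The start regions of Cybb and Cyba, which were higher than in B6 aortas, and of Nox4, which was lower, are given first. Each runs over 280 bases of mouse assembly GRCm38.p6 as annotated by RefSeq, with 250 bases before the start of the gene and 30 from it onwards, on the strand of the gene. Capitals mark a PU.1 core (GAGGAA or its reverse complement TTCCTC) or a GC box (GGGCGG or its reverse complement CCGCCC). Both strands were searched, and the capitals do not overlap each other. The first lies at chrX:9469295-9469574, the second at chr8:122432911-122433190, both on the minus strand, and the third at chr7:87246399-87246678 on the plus strand.
Cybb: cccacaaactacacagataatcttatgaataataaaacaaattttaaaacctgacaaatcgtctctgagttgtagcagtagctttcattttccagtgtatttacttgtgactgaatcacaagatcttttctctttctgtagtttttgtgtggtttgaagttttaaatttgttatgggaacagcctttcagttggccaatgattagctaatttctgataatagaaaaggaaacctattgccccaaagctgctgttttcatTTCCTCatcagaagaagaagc
Cyba: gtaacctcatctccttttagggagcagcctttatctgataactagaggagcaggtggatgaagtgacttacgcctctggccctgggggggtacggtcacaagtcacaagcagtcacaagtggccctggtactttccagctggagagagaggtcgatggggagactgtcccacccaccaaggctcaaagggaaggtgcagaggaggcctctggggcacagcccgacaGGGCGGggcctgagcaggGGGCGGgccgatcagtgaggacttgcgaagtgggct
Nox4: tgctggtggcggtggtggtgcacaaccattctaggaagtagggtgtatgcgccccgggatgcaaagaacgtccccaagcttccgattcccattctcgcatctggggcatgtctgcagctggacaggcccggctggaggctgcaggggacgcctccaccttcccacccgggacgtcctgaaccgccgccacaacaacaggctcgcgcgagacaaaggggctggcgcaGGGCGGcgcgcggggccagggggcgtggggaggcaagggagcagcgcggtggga
The Cybb region was AT-rich, with a GC content of 34.3%, and held 1 PU.1 core at position 10 from the start and no GC box. PU.1, encoded by Spi1, is a transcription factor of myeloid and B cells. The Cyba region had a GC content of 60.0% and 2 GC boxes, 24 and 6 bases before the start, and the Nox4 region had 67.9% and 1 GC box 24 bases before the start. Cyba was thus nearer to Nox4 than to Cybb in GC content. Any link of base composition to the direction of the differences was not tested. Ncf1, not shown, had 53.9%, 1 GC box 42 bases before the start and no PU.1 core. Nox1, not shown, had 37.9%, 1 PU.1 core 23 bases before the start and no GC box. Of 32851 promoters cut to the same 280 bases, 26.0% held a PU.1 core and 34.7% a GC box. The motifs were chosen after the values were seen, and a match is a description of these letters only.

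Apoe gave 40.5 and 45.3 in VitE and 93.2 and 57.4 in ApoE-/- aortas, against 5209 and 5432 in B6 aortas, so the arrays followed their genotype labels. Signal intensity averaged between 305 and 319 on each of the 6 arrays, and replicate arrays correlated with r between 0.984 and 0.992 across probe sets. All 10 smooth muscle, 10 endothelial and 10 fibroblast markers passed the filter on low values, as the label aorta implies. The arrays of VitE aortas have sample records apart from those of the other 4 arrays, and whether all 6 were hybridized together is not given in the sources used here. A difference between hybridizations and the treatment therefore cannot be told apart. The ratio of 3′ to 5′ Gapdh signal was 1.15 and 1.24 in VitE, 1.03 and 1.06 in ApoE-/-, and 1.35 and 1.34 in B6 aortas. Poly-A labelling controls averaged 2.69-fold higher in B6 than in VitE and 3.42-fold higher in B6 than in ApoE-/- aortas, and their part in the results was not tested.

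Signal intensities are linear values that had been scaled per array to a common target. For the tests, values under 20 were set to 20 and log2-transformed, and limma was fitted to the probe sets with a mean of at least 100 in at least 1 group. That left 17909 probe sets, among them 8 of the 12 oxidase probe sets, which cover 6 genes. An adjusted p under 0.05 (Benjamini-Hochberg over the 17909) was a call. The genes of the phagocyte enzyme had higher signal intensities in VitE and in ApoE-/- than in B6 aortas, with calls for Cybb, Cyba and Rac2 in both, for Ncf1 in VitE and for Ncf4 in ApoE-/- aortas, whereas Nox4 had its highest signal in B6 aortas. Relative to B6 aortas, 5 of the 8 probe sets were higher and 1 was lower in ApoE-/- aortas, where 40.8% of all probe sets tested were called (21.7% higher and 19.1% lower). The same counts, 5 higher and 1 lower, were found in VitE aortas relative to B6, against 41.1% of all (21.9% higher and 19.2% lower). In VitE relative to ApoE-/- aortas, none of the 8 was higher, 1 was lower and 7 did not pass the test, against 15.5% of all (8.52% higher and 6.99% lower). At an unadjusted p under 0.05, 1 of the 8 was higher (Rac2) and 3 were lower (both Cybb probe sets and Nox4). The share of all probe sets at that threshold was not computed, so this count is a description only. The median log2 fold change of the 8 probe sets was −0.08 in VitE relative to ApoE-/- aortas, 0.66 in ApoE-/- relative to B6 aortas and 0.54 in VitE relative to B6 aortas. Over all probe sets tested these medians were 0.00, 0.03 and 0.02. The comparisons share arrays, so their counts are not independent of each other.

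**Figure D1:**
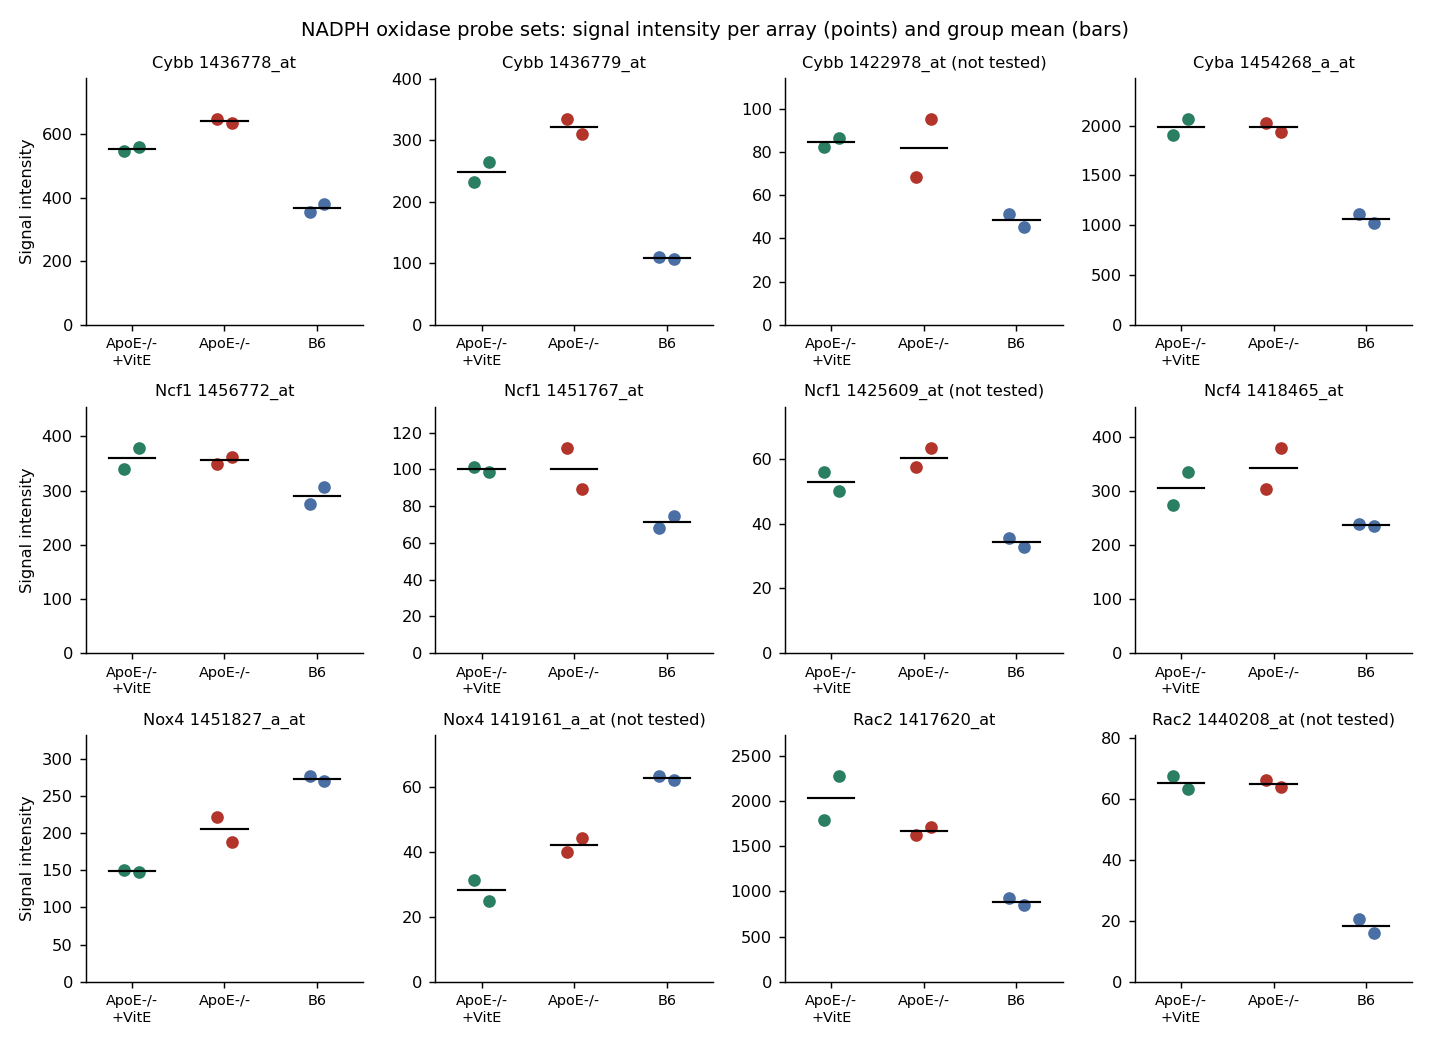
Signal intensity (linear, scaled per array) of the 12 oxidase probe sets, with 1 point per array and a bar for the mean of the 2 arrays of VitE, ApoE-/- and B6 aortas. Cybb, Cyba and Rac2 have VitE and ApoE-/- above B6, and the tested probe set of Nox4 has 151 and 147 in VitE, against 276 and 269.8 in B6 aortas. VitE is written ApoE-/- +VitE on the axes.

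Cybb encodes the electron-carrying subunit of the phagocyte enzyme, and 2 of its 3 probe sets were tested. On 1436778_at, the brighter one, the signal intensity was 547 and 562 in VitE aortas, 647 and 635 in ApoE-/- aortas, and 356 and 380.3 in B6 aortas. The 3 groups did not overlap, with ApoE-/- aortas highest and B6 lowest. Relative to B6 aortas Cybb was 1.74-fold higher in ApoE-/- aortas (log2 fold change 0.80, with a standard error, SE, of 0.07, limma adjusted p = 0.000206) and 1.51-fold higher in VitE aortas (0.59, SE 0.07, adjusted p = 0.000881). VitE and ApoE-/- aortas differed by a log2 fold change of −0.21 (95% interval −0.38 to −0.04, adjusted p = 0.101), which did not pass the test.

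On 1436779_at, the signal intensity of Cybb was 232 and 264 in VitE, 333.5 and 309.8 in ApoE-/-, and 110.1 and 107 in B6 aortas. The order of the groups was the one seen on the brighter probe set, again without overlap. The difference from B6 aortas was 2.96-fold in ApoE-/- aortas (95% interval 2.45 to 3.58, limma adjusted p = 7.93e-05), against an interval of 1.55 to 1.96 on the brighter probe set. Both probe sets were therefore higher in ApoE-/- aortas, by sizes whose intervals do not overlap. In VitE relative to B6 aortas, 1436779_at was 2.28-fold higher (adjusted p = 0.000305). VitE aortas had a log2 fold change of −0.38 relative to ApoE-/- aortas (95% interval −0.65 to −0.10, adjusted p = 0.0705), which among the alternatives run passed only when arrays were centred on their medians (adjusted p = 0.0451). The dimmest probe set, 1422978_at, was not tested, and its signal intensity was 82.5 and 86.6 in VitE, 68.4 and 94.96 in ApoE-/-, and 51.4 and 45.2 in B6 aortas. Here VitE and ApoE-/- overlapped, and both lay above B6.

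Cyba encodes p22phox, the partner of both gp91phox and Nox4, and has 1 probe set. Its signal intensity was 1908 and 2062 in VitE aortas, 2028 and 1938 in ApoE-/- aortas, and 1111 and 1021 in B6 aortas. Cyba rose 1.86-fold relative to B6 in ApoE-/- aortas (log2 fold change 0.90, SE 0.07, limma adjusted p = 0.000115) and 1.86-fold in VitE aortas (0.90, adjusted p = 0.000133). The arrays of VitE and ApoE-/- aortas overlapped. Their difference was 0.00 on the log2 scale, with a 95% interval of −0.17 to 0.17, or a fold of 0.890 to 1.13 (adjusted p = 0.997).

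The cytosolic organizer Ncf1 and its partner Ncf4 gave, on their tested probe sets, smaller log2 fold changes relative to B6 aortas than Cybb and Cyba, with no test between genes. Ncf1 had a signal intensity on 1456772_at of 340.3 and 378 in VitE, 349 and 363 in ApoE-/-, and 274.5 and 307 in B6 aortas. VitE and ApoE-/- both lay above B6, and they overlapped each other. The log2 fold change relative to B6 was 0.29 in ApoE-/- aortas (SE 0.10, limma adjusted p = 0.0515), just outside the threshold, and 0.31 in VitE aortas (SE 0.10, adjusted p = 0.0440), just inside it. The call in VitE aortas was lost without either array of ApoE-/- or of B6 aortas or without replicate 2 of the VitE aortas (adjusted p = 0.0698 to 0.226). For ApoE-/- aortas a call was gained without either array of VitE aortas, so the 2 values are not shown to differ.

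Ncf1 on 1451767_at had a signal intensity of 101 and 98.8 in VitE, 112 and 89.1 in ApoE-/-, and 68.4 and 74.8 in B6 aortas. It passed the filter through ApoE-/- aortas alone, with a mean of 100.4. Its log2 fold change relative to B6 was 0.48 in ApoE-/- (limma adjusted p = 0.0619) and 0.48 in VitE aortas (adjusted p = 0.0602). VitE and ApoE-/- overlapped. The third probe set of Ncf1, 1425609_at, was not tested, with 55.9 and 50.01 in VitE, 57.5 and 63.4 in ApoE-/-, and 35.6 and 32.9 in B6 aortas. Without the filter its log2 fold change relative to B6 was 0.82 in ApoE-/- (adjusted p = 0.0545) and 0.63 in VitE aortas (adjusted p = 0.0902), which is as large as that of the brighter Cybb probe set. All 3 probe sets of Ncf1 were thus lowest on the B6 arrays, and only 1 of them gave a call, in 1 comparison.

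Ncf4 encodes p40phox, which binds a phosphoinositide of the phagosome membrane. Its signal intensity was 276 and 336 in VitE, 304 and 380.5 in ApoE-/-, and 239 and 236.5 in B6 aortas. The replicate arrays of VitE and of ApoE-/- aortas were further apart than those of B6, and all 4 were above B6. In ApoE-/- aortas Ncf4 was 1.43-fold higher than in B6 aortas (log2 fold change 0.52, SE 0.14, limma adjusted p = 0.0225). This call was lost without replicate 2 of ApoE-/- aortas (0.36, adjusted p = 0.141) and without either B6 array (adjusted p = 0.0997 and 0.105). VitE aortas did not pass the test against B6 (0.36, adjusted p = 0.0793) except without their replicate 1 (adjusted p = 0.0358), or against ApoE-/- aortas (−0.16, 95% interval −0.49 to 0.17, adjusted p = 0.470).

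Rac2, the Rac GTPase of blood cells, had the largest spread over the 6 arrays among the 6 genes, with a standard deviation of 0.57 on the log2 scale, against 0.47 for Cyba, 0.40 for Nox4, 0.37 for Cybb, 0.27 for Ncf4 and 0.17 for Ncf1 on the brightest probe set of each. On 1417620_at, its signal intensity was 1789 and 2271 in VitE aortas, 1620.1 and 1707 in ApoE-/- aortas, and 924 and 844 in B6 aortas. The 3 groups did not overlap, and VitE aortas were highest, unlike for Cybb. Relative to B6, Rac2 was 1.88-fold higher in ApoE-/- aortas (log2 fold change 0.91, SE 0.11, limma adjusted p = 0.000762) and 2.28-fold higher in VitE aortas (1.19, SE 0.11, adjusted p = 0.000255). The difference of VitE from ApoE-/- aortas, 0.28 (95% interval 0.01 to 0.54, adjusted p = 0.140), did not pass the test. It passed without replicate 1 of VitE aortas (0.45, adjusted p = 0.00972) and was 0.11 without replicate 2 (adjusted p = 0.376), so its size rested on which of these arrays was kept. The second probe set of Rac2, 1440208_at, was under the filter, with 67.3 and 63.0 in VitE, 66.2 and 63.7 in ApoE-/-, and 20.6 and 16.0 in B6 aortas. Without the filter it was called higher than B6 in VitE (1.68, adjusted p = 0.00911) and in ApoE-/- aortas (1.68, adjusted p = 0.00903), and VitE and ApoE-/- overlapped.

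Nox4, the constitutively active homologue, was the member with the opposite order. On 1451827_a_at, its signal intensity was 151 and 147 in VitE aortas, 222 and 188 in ApoE-/- aortas, and 276 and 269.8 in B6 aortas. No group overlapped another, with B6 highest and VitE aortas lowest. Relative to B6, Nox4 was 1.83-fold lower in VitE aortas (log2 fold change −0.87, SE 0.12, limma adjusted p = 0.00133) and 1.33-fold lower in ApoE-/- aortas (−0.42, SE 0.12, adjusted p = 0.0284). In VitE aortas it was 1.37-fold lower than in ApoE-/- aortas (−0.46, SE 0.12, adjusted p = 0.0430), the only oxidase call between these groups.

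The Nox4 call between VitE and ApoE-/- aortas did not hold when any 1 of the 6 arrays was left out (log2 fold change −0.58 to −0.34, adjusted p = 0.0636 to 0.224). The call between ApoE-/- and B6 aortas was lost without replicate 2 of ApoE-/- aortas (−0.30, adjusted p = 0.169) and without either B6 array (adjusted p = 0.109 and 0.133), whereas that between VitE and B6 aortas held without any 1 array (adjusted p at most 0.0178). The second probe set of Nox4, 1419161_a_at, was not tested, and had a signal intensity of 31.4 and 24.8 in VitE, 39.9 and 44.3 in ApoE-/-, and 63.1 and 62.1 in B6 aortas. It showed the same order of the 3 groups without overlap. Without the filter it was called lower in VitE than in B6 aortas (−1.17, adjusted p = 0.0366) and not in the other comparisons (adjusted p = 0.217 and 0.140). Over the 8 tested oxidase probe sets, VitE did not overlap ApoE-/- in 1 as the higher and in 3 as the lower group, against 30.5% and 28.4% of all probe sets tested (58.9% together). ApoE-/- did not overlap B6 in 7 as the higher and in 1 as the lower group, against 40.8% and 36.0% (76.8% together), and VitE did not overlap B6 in 7 and in 1, against 37.4% and 34.0% (71.5% together). With 2 arrays a group such separation was common on the whole array.

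**Figure D2:**
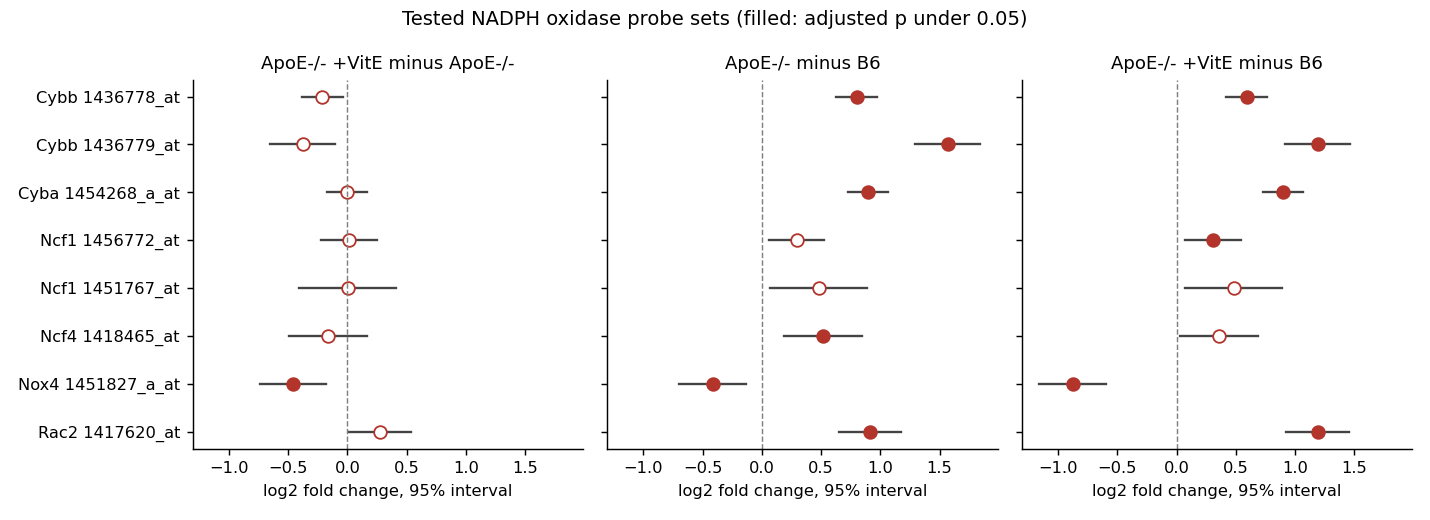
Log2 fold change of the 8 tested oxidase probe sets (points) with its 95% interval (lines) for VitE minus ApoE-/-, ApoE-/- minus B6 and VitE minus B6 aortas, filled where the adjusted p was under 0.05. Only Nox4 is filled in the first panel (−0.46), and it is the only point left of 0 in the other 2 panels.

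Among further components of the oxidases, taken by their brightest probe set, Cybc1, Hvcn1 and Rac1 were higher in ApoE-/- than in B6 aortas, and Poldip2 was lower in VitE than in ApoE-/- aortas. Of 14 listed components, 10 had a probe set and 6 were tested, of which 3 were higher and none lower in ApoE-/- than in B6 aortas, 3 were higher and 1 lower in VitE than in B6 aortas, and 1 was lower in VitE than in ApoE-/- aortas. Of all probe sets tested, 40.8%, 41.1% and 15.5% were called in these comparisons. Their median log2 fold changes were 0.19, 0.06 and −0.02 in these comparisons. Cybc1, a chaperone that gp91phox and p22phox need for their maturation, had 384 and 400.4 in VitE, 360.3 and 367 in ApoE-/-, and 247 and 257 in B6 aortas. Relative to B6 it rose in ApoE-/- aortas (log2 fold change 0.53, limma adjusted p = 0.00245) and in VitE aortas (0.64, adjusted p = 0.00114). Hvcn1, the proton channel that offsets the charge of the electrons moved by the oxidase, had 599.6 and 567 in VitE, 569.5 and 557 in ApoE-/-, and 427 and 440.4 in B6 aortas. Hvcn1 was higher by 0.38 on the log2 scale in ApoE-/- relative to B6 aortas (adjusted p = 0.00547).

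Rac1, the widely expressed Rac GTPase, was higher in ApoE-/- than in B6 aortas by 0.28 on the log2 scale (limma adjusted p = 0.0113), with 4013 and 4238 in VitE, 4227 and 4234 in ApoE-/-, and 3444 and 3546 in B6 aortas. This call was lost without any 1 array of ApoE-/- or B6 aortas (adjusted p = 0.0661 to 0.0985). By its suffix the probe set can match more than 1 transcript. A second Rac1 probe set had 1254 and 1454 in VitE, 1246 and 1178 in ApoE-/-, and 1124 and 1061 in B6 aortas. It did not pass the test between ApoE-/- and B6 aortas (0.15, adjusted p = 0.194) and was called higher in VitE than in B6 aortas (0.31, adjusted p = 0.0240), a call lost without either B6 array (adjusted p = 0.0746 and 0.140) or replicate 2 of VitE aortas (0.20, adjusted p = 0.0567). Poldip2, a protein that binds p22phox and raises Nox4 activity in smooth muscle, had 819 and 871 in VitE, 1126 and 1153 in ApoE-/-, and 1057 and 1061 in B6 aortas. It fell in VitE relative to ApoE-/- aortas (−0.43, SE 0.06, adjusted p = 0.00551, and 0.0584 without replicate 2 of ApoE-/- aortas) and relative to B6 aortas (adjusted p = 0.00590). A second Poldip2 probe set was also lowest in VitE aortas, with 557 and 569, against 681 and 657 in ApoE-/- and 705.5 and 670.3 in B6 aortas. Its difference from ApoE-/- aortas (−0.25, adjusted p = 0.0492) was not called when any 1 array was left out (adjusted p = 0.0632 to 0.228). Rap1a, a small GTPase found with the phagocyte cytochrome, did not pass the test in any of the 3 comparisons on its brighter probe set. On its second probe set, Rap1a had 360.2 and 381 in VitE, 399 and 466 in ApoE-/-, and 339.996 and 345 in B6 aortas, and was called higher in ApoE-/- than in B6 aortas (0.33, adjusted p = 0.0302). That call was lost without replicate 2 of ApoE-/- (0.22, adjusted p = 0.192) or either B6 array (adjusted p = 0.131 and 0.113). Rac3 did not pass the test in any of the 3 comparisons. Noxo1, Duox1, Duoxa1 and Duoxa2 were under the filter, and the remaining listed components were not analysed here.

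Of 16 genes listed for oxidase activation, 12 were tested. The list holds activators, scaffolds and the inhibitor Arhgdib, so its counts are not of activators alone. In ApoE-/- relative to B6 aortas 6 were higher and 2 lower (median 0.32), and in VitE relative to ApoE-/- aortas 3 were higher and 1 lower (median 0.07), against 40.8% and 15.5% of all probe sets called in either direction. Vav1, an exchange factor for Rac in blood cells, had 184 and 179.6 in VitE, 178 and 107 in ApoE-/-, and 79.3 and 60.6 in B6 aortas (0.99 on the log2 scale in ApoE-/- relative to B6, limma adjusted p = 0.0176). Its ApoE-/- arrays were the furthest apart, and the call was lost without replicate 1 of ApoE-/- (adjusted p = 0.0912) or replicate 2 of B6 aortas (adjusted p = 0.114). Arhgdib, which holds Rac GTPases inactive in the cytosol of blood cells, was higher in ApoE-/- than in B6 aortas (0.60, adjusted p = 0.00117) and higher again in VitE than in ApoE-/- aortas (0.34, adjusted p = 0.0326). It had 3091 and 3593 in VitE, 2645 and 2637 in ApoE-/-, and 1713 and 1780.1 in B6 aortas, and the call between VitE and ApoE-/- was lost without any 1 array of ApoE-/- or B6 aortas (adjusted p = 0.0779 to 0.165). Sh3pxd2a, the scaffold TKS5 of podosomes and a relative of p47phox, was lower in ApoE-/- than in B6 aortas (−0.91, adjusted p = 0.000122) and higher in VitE than in ApoE-/- aortas (0.46, adjusted p = 0.00882), with 1263 and 1411 in VitE, 975 and 969 in ApoE-/-, and 1899 and 1768 in B6 aortas. The difference between VitE and ApoE-/- was not called without replicate 1 (adjusted p = 0.0629) or 2 (adjusted p = 0.0709) of ApoE-/- aortas. P4hb, a protein disulfide isomerase, was not called in any comparison with all arrays, and was called higher in ApoE-/- than in B6 aortas (0.16) without either VitE array (adjusted p = 0.0119 and 0.0122).

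The enzymes that remove superoxide and peroxide gave 1 large difference. Sod3, the secreted superoxide dismutase of the vessel wall, had a signal intensity of 987 and 1027 in VitE, 1631 and 1595 in ApoE-/-, and 468 and 482 in B6 aortas. No group overlapped another. Sod3 was 3.40-fold higher in ApoE-/- relative to B6 aortas (log2 fold change 1.76, SE 0.06, limma adjusted p = 2.94e-06) and 1.60-fold lower in VitE than in ApoE-/- aortas (−0.68, SE 0.06, adjusted p = 0.000768). Of the 7 enzymes tested, Sod3 was the only one higher in ApoE-/- than in B6 aortas, and mitochondrial Sod2 was the only one lower (−0.23, adjusted p = 0.0284). Of all probe sets tested, 21.7% were called higher and 19.1% lower in that comparison. Sod2 had 4433 and 4757 in VitE, 5279 and 5364 in ApoE-/-, and 6231 and 6263 in B6 aortas, and its call was lost without any 1 array of ApoE-/- or B6 aortas (adjusted p = 0.140 to 0.171). Cat (catalase) and Gpx4, which reduces lipid hydroperoxides, did not pass the test in that comparison (−0.26 and −0.25, adjusted p = 0.119 and 0.0858). Both passed it as lower without either VitE array (adjusted p at most 0.00174). The median of the 7 enzymes was −0.18 in ApoE-/- relative to B6 and −0.11 in VitE relative to ApoE-/- aortas. In the angiotensin system, which signals to the oxidases, 3 genes were tested. All 3 were called in ApoE-/- relative to B6 aortas and none in VitE relative to ApoE-/- aortas. Of all probe sets tested, 40.8% and 15.5% were called, and these 3 genes are too few to set against such shares. Ace was higher (1.13, adjusted p = 0.0250), a call lost without replicate 2 of ApoE-/- or either B6 array (adjusted p = 0.0788 to 0.142), and the receptor Agtr1a lower (−0.62, adjusted p = 0.00444). Agt, the angiotensin precursor, had 8.70 and 8.91 in VitE, 25.3 and 6.07 in ApoE-/-, and 114 and 157 in B6 aortas, so that 3 of 4 arrays of VitE and ApoE-/- aortas were under the floor of 20. Agt passed the filter through B6 aortas alone, the group where it was highest, with a mean of 135.9. Its call relative to B6 aortas is therefore no separate support.

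**Figure D3:**
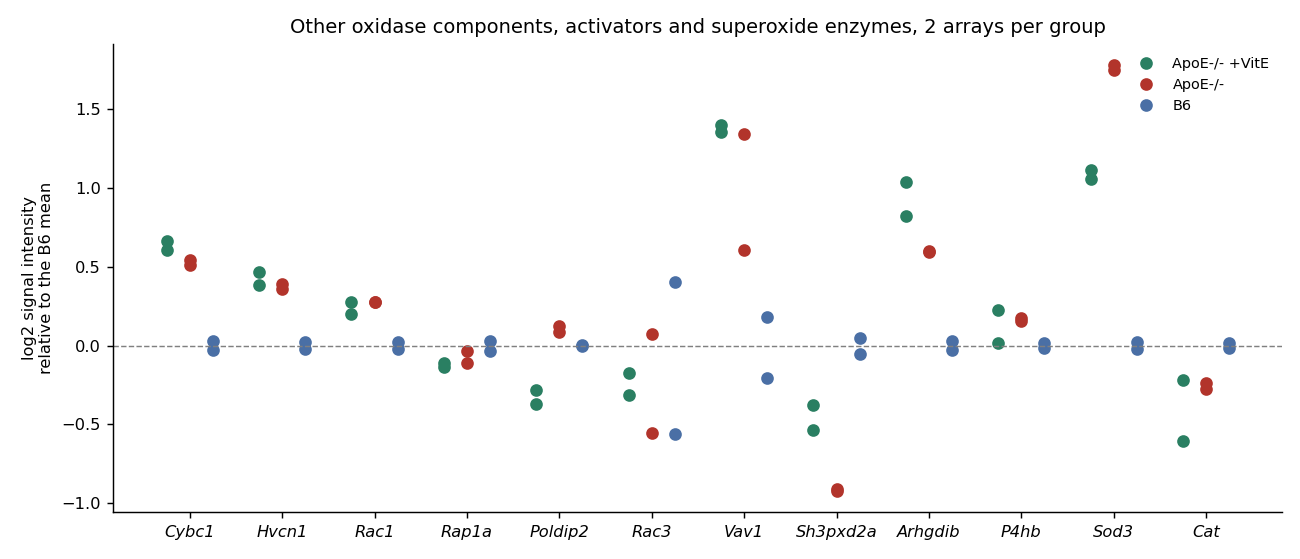
Log2 signal intensity of partner genes of the oxidase relative to the B6 mean of each gene, with 1 point per array and 2 arrays each of VitE, ApoE-/- and B6 aortas. Sod3 has the largest rise in ApoE-/- aortas, and Sh3pxd2a has its lowest points there.

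The cell types that carry the phagocyte oxidase were followed with marker lists, with 1 probe set per gene. Of 18 macrophage markers tested, 11 were higher and 1 lower in ApoE-/- relative to B6 aortas (median log2 fold change 0.63), against 21.7% of all probe sets called higher and 19.1% lower. In VitE relative to ApoE-/- aortas 1 was higher and 2 lower, with a median of −0.17, against 8.52% and 6.99% of all. The summed signal of the 20 macrophage markers was between 20092 and 20683 in VitE, between 22338 and 22352 in ApoE-/-, and between 15308 and 15385 in B6 aortas. The sum had the order of Cybb, but it is weighted to the brightest genes, and single markers differed in order. Marco, the 1 called lower, had 861 and 922 in VitE, 603 and 541 in ApoE-/-, and 804 and 824 in B6 aortas. Cd163, Cd14 and Msr1 had their highest means in B6 aortas and were not called in ApoE-/- relative to B6 aortas. Spi1, which encodes PU.1, had 201 and 235 in VitE, 221 and 227 in ApoE-/-, and 98.8 and 90.9 in B6 aortas, and Trem2, a receptor of lesion macrophages, was under 20 on all 6 arrays.

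Lymphocyte markers had another order, with VitE aortas highest for T cells, as for Rac2. Of 10 T cell markers, 8 were higher in ApoE-/- than in B6 aortas, 6 were higher in VitE than in ApoE-/- aortas and none was lower in either comparison (medians 1.18 and 0.53). Their summed signal was between 11357 and 11745 in VitE, between 7651 and 8033 in ApoE-/-, and between 3866 and 4055 in B6 aortas. For this list and those that follow, the shares of all probe sets tested stand beside the counts. They were 21.7% higher and 19.1% lower in ApoE-/- relative to B6 aortas. In VitE relative to ApoE-/- aortas they were 8.52% higher and 6.99% lower. All 8 B cell markers tested were higher in ApoE-/- than in B6 aortas, and none was called in VitE relative to ApoE-/- aortas (medians 0.73 and 0.13). Of 6 immature thymocyte markers, 5 were higher and 1 lower in ApoE-/- than in B6 aortas (median 2.55), and 1 was higher in VitE than in ApoE-/- aortas (median 0.59). Among the 5 is Rag2, which passed the filter through VitE aortas alone, the group where it was highest. Its means were 124.6 in VitE, 92.4 in ApoE-/- and 4.89 in B6 aortas, so its call relative to B6 is no separate support. Rag1, which rearranges antigen receptor genes, had 2939.8 and 3019.6 in VitE and 1887 and 2060.1 in ApoE-/- aortas, against 10.4 and 3.14 in B6 aortas. Neutrophils, which carry the enzyme at high level, left 4 markers above the filter, with none higher and 1 lower (Prtn3) in ApoE-/- than in B6 aortas (median −0.08), and 1 higher (S100a9) and none lower in VitE than in ApoE-/- aortas (median 0.38). These 4 are too few to set against the shares of all probe sets. Prtn3 passed the filter through B6 aortas alone, the group where it was highest, with a mean of 133.7. S100a9, a calcium-binding protein of neutrophils and monocytes, had 164 and 191 in VitE, 96.6 and 119.6 in ApoE-/-, and 124 and 131 in B6 aortas. Its call (0.72, adjusted p = 0.0249) was lost without either array of ApoE-/- or of B6 aortas or replicate 2 of VitE aortas (adjusted p = 0.0543 to 0.136). Ltf (lactoferrin) was the brightest marker of this list, between 1765 and 2232 in VitE, 2188 and 2669 in ApoE-/-, and 2243 and 2306 in B6 aortas, whereas Elane, Mpo, Camp and Mmp8, made by neutrophils and their precursors, reached at most 46.2 on any array. Of the other markers under the filter, Csf3r had 54.8 and 44.3 in VitE, 44.7 and 42.8 in ApoE-/-, and 25.2 and 15.0 in B6 aortas. Ngp had 68.5 and 76.1 in VitE, 89.4 and 51.0 in ApoE-/-, and 33.3 and 46.8 in B6 aortas. Cxcr2 had 57.1 and 94.2 in VitE, 55.9 and 58.7 in ApoE-/-, and 51.7 and 51.1 in B6 aortas. Csf3r, Ngp, Cxcr2 and Mpo were each lowest on the B6 arrays, whereas Elane, Camp and Mmp8 overlapped between ApoE-/- and B6 aortas. None of these was tested. Of all probe sets tested, 40.8% had ApoE-/- and 37.4% had VitE above B6 aortas without overlap. The summed signal of the list overlapped between all 3 groups. The part of these cell types in the values of the phagocyte subunits was not tested.

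Of the markers of cell types that carry Nox4, ApoE-/- relative to B6 aortas gave calls for 1 higher and 1 lower of 10 smooth muscle markers (median 0.07), 3 and 1 of 10 endothelial markers (median 0.22), and 3 and 1 of 10 fibroblast markers (median −0.02), against 40.8% of all probe sets called in either direction. In VitE relative to ApoE-/- aortas, 3 were lower and none higher in each of these 3 lists (medians −0.23, −0.14 and −0.13), against 6.99% of all called lower. The summed signal of the smooth muscle markers was between 18775 and 19763 in VitE, between 20540.3 and 20951 in ApoE-/-, and between 21419 and 21989 in B6 aortas. Acta2, the brightest of them, had 8791 and 9530 in VitE, 9158 and 9773 in ApoE-/-, and 10846 and 11061 in B6 aortas. Myh11, Tagln and Myocd did not pass the test between ApoE-/- and B6 aortas (log2 fold changes −0.02, 0.00 and −0.02). Smtn was called higher there and Synpo2 lower. The summed endothelial signal (3507 and 3869.98 in VitE, 4157 and 4165 in ApoE-/-, and 4044 and 3875 in B6 aortas) was highest in ApoE-/- aortas, and the summed fibroblast signal (30420.1 and 34092 in VitE, 35367 and 34492 in ApoE-/-, and 34566.5 and 34442 in B6 aortas) overlapped between ApoE-/- and B6 aortas. Such sums are weighted to the brightest genes, and single markers of a list differed in order. Vwf had 403 and 411 in VitE, 567 and 577 in ApoE-/-, and 828 and 788 in B6 aortas. Cdh5 had 257 and 266 in VitE, 305 and 309 in ApoE-/-, and 210 and 242 in B6 aortas. The ratio of the summed smooth muscle signal was 0.929 in VitE over ApoE-/- aortas and 0.888 in VitE over B6 aortas, against a fold of 0.728 and 0.545 for Nox4. The same ratios were 0.886 and 0.932 for the endothelial sum and 0.923 and 0.935 for the fibroblast sum. Single smooth muscle markers ran from a fold of 0.700 (Myocd) to 1.16 (Des) in VitE relative to ApoE-/- aortas. Relative to B6 aortas the same 2 genes had 0.690 and 1.27. Single endothelial markers ran from a fold of 0.711 (Vwf) to 1.10 (Tie1) in VitE relative to ApoE-/- aortas. Against B6 aortas, Vwf had 0.503 and Tie1 1.33. The part of cell composition in the Nox4 values was not tested.

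**Figure D4:**
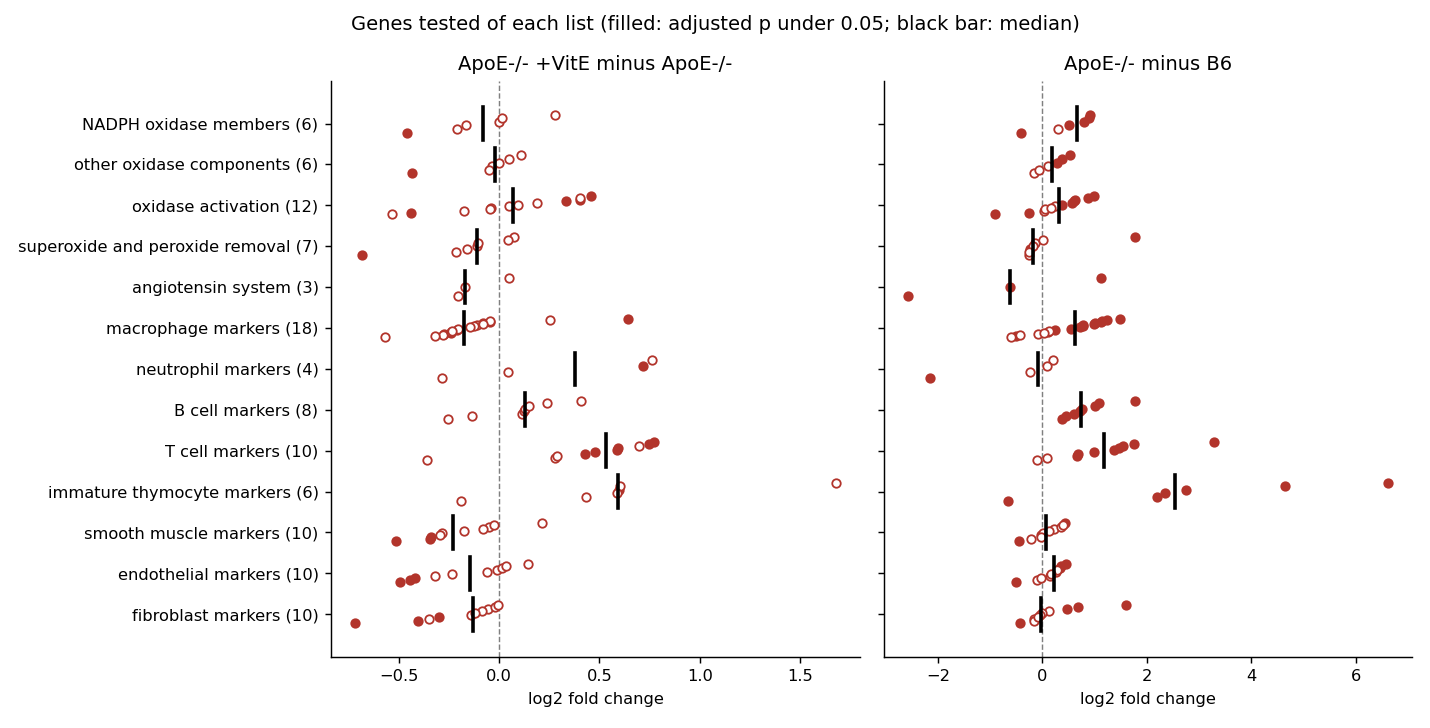
Log2 fold change of the genes tested of each list (points, filled where the adjusted p was under 0.05) with the median of the list (black bar), for VitE minus ApoE-/- aortas and ApoE-/- minus B6 aortas. The oxidase genes have medians of −0.08 and 0.66, and the T cell and immature thymocyte lists have medians above 0 in both panels.

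For each oxidase gene with a standard deviation of at least 0.3 over the 6 arrays, the 3 genes of most like pattern were those with the smallest root mean square difference of centred log2 values, among 16069 probe sets. For Cybb these were Mbd2, Asb2 and Drap1, with differences of 0.03, 0.03 and 0.04. Asb2, for example, had 584 and 622 in VitE, 689.5 and 662 in ApoE-/-, and 376 and 389.96 in B6 aortas. For Cyba they were Akap10, Apex1 and Vars (0.03 to 0.04), and for Nox4 Coq10b, Hsd11b1 and Stbd1 (0.06 to 0.07). Hsd11b1, which regenerates active glucocorticoid, had 677 and 651 in VitE, 902 and 864 in ApoE-/-, and 1287 and 1225 in B6 aortas. For Rac2 they were Laptm5, Espl1 and Casp2 (0.06 each). Laptm5, a lysosomal membrane protein of blood cells, had 1814 and 2227 in VitE, 1681 and 1769.8 in ApoE-/-, and 1014 and 925 in B6 aortas, and replicate 2 was above replicate 1 in VitE aortas as it was for Rac2. With 6 arrays in 3 groups, many genes can come this close, and the likeness is a description. Ncf1 and Ncf4 varied too little for this measure.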

How the data were processed

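Signal intensities of 6 GeneChip Mouse Genome arrays were used as deposited. According to the methods, the authors computed them with GCOS and scaled each array to a common target, and the deposited intensity values are linear. The submitters' processing notes also name GCOS. The methods mention RMA-processed data for a gene ontology analysis, which were not used here. Of the 45101 probe sets, 64 are array controls and 34945 carry 1 gene symbol in the platform annotation. No genome was used, and promoter sequences are from RefSeq (GRCm38.p6).

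Intensities under 20 were set to 20 before log2, and only probe sets that averaged at least 100 in some group entered the tests. In limma 3.58.1 (R 4.3.3), the 6 arrays were fitted together with a mean for each group, and variances were moderated by intensity (3 residual and a median of 4.46 prior degrees of freedom). P-values were adjusted over all 17909 probe sets (Benjamini-Hochberg), with a call at an adjusted p under 0.05. The procedure was tested on simulated data. The 2 arrays of a group are biological replicates by the series' text, each a pool of 3 aortas, and 2 arrays a group limit the precision.

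A gene of a list was represented by its probe set of highest mean signal. Named were all members with all their probe sets, all tested oxidase components, and in the other pathway lists the 2 genes of highest signal and the 2 with the largest difference between untreated ApoE-/- and B6 aortas. Spi1, Trem2, Marco, Cd163, Cd14, Msr1, Rag1, Rag2, S100a9, Prtn3, Ltf, Elane, Mpo, Camp, Mmp8, Csf3r, Ngp, Cxcr2, Acta2, Myh11, Tagln, Myocd, Smtn, Synpo2, Des, Vwf, Tie1 and Cdh5 were picked from the marker lists, and the motifs chosen, after the values were seen. The members and lists were chosen with earlier results of these data known. As alternatives, arrays were quantile normalized or centred on their medians, the floor was set to 50 or 1, the filter or the trend was dropped, only 2 groups were fitted, replicate number was added as a block, each gene was kept with 1 probe set, each array was left out, and there was the methods' t-test (p of at most 0.01 and at least 2-fold, or after Benjamini-Hochberg adjustment). For list counts and partner genes these alternatives were added after the values were seen. Captopril-treated mice were not analysed here.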

Additional observations from a re-analysis of the deposited data

How the results depend on the processing

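No called direction reversed under any alternative run. Of the log2 fold changes of the oxidase probe sets under these alternatives, 348 kept their side of the threshold, 38 lost a call and 13 gained one, and for the probe sets of the named partner genes, whose alternatives were added after the values were seen, these counts were 881, 106 and 21. In vitamin E-treated relative to untreated ApoE-/- aortas, 1 oxidase probe set was called, against 2 with median centring, 0 without the filter, 0 in a fit of only the 2 groups, 0 with the replicate number as a block, 0 by the methods' t-test at its thresholds and 0 after Benjamini-Hochberg adjustment, and 0 to 1 when 1 array was left out. Of 104 tested genes of the other lists 26 were called in this comparison, 20 with the block, 11 without the filter, 10 to 32 with 1 array left out (10 without replicate 1 and 10 without replicate 2 of untreated ApoE-/- aortas), and 0 by the t-test both at its thresholds and after adjustment. In untreated ApoE-/- relative to B6 aortas, 6 oxidase probe sets were called (7 with the block, 4 to 7 with 1 array left out), against 1 by the t-test at its thresholds and 3 after adjustment, and 61 list genes (59 with the block), against 14 and 35. In vitamin E-treated ApoE-/- relative to B6 aortas, 6 oxidase probe sets were called (6 with the block, 5 to 7 with 1 array left out), against 1 and 0 by the t-test, and 69 list genes (66 with the block), against 12 and 1. Arrays of the same number did not deviate together (r = 0.05, −0.10 and 0.05 between groups), so the block pairs nothing but numbers. It changed 2 calls of oxidase probe sets, namely Nox4 in vitamin E-treated relative to untreated ApoE-/- aortas (lost, adjusted p = 0.0552 from limma) and Ncf1 in untreated ApoE-/- relative to B6 aortas (gained). The calls of Cybb, Cyba and Rac2 relative to B6 were lost in no alternative but the methods' t-test. Median centring moved the median of all probe sets by −0.16 on the log2 scale in vitamin E-treated relative to B6 aortas, and by −0.09 and −0.07 in vitamin E-treated relative to untreated ApoE-/- and in untreated ApoE-/- relative to B6 aortas. With 2 arrays a group, a difference of the size of Ncf1 lay at the threshold, and 4 oxidase probe sets were too dim to pass the filter.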
